A study of Homo sapiens with 8 samples.

Results

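The cytosolic ribosome of human cells is built from a small and a large subunit, and its protein genes are named RPS for the small and RPL for the large one. The genes described here were chosen by symbol alone: RPL or RPS followed by digits, with the suffixes that mark true family members, and RPLP0, RPLP1, RPLP2 and RPSA. Pseudogenes, RPS6 kinase genes and paralogs with an L suffix were left out. The rule found 78 genes among 22808 symbols, 46 of the large and 32 of the small subunit. Of these, 77 passed the filter on low counts and were tested among 12366 genes, and RPS4Y1 did not pass it. The rule uses gene symbols and no measured value, although it was written with earlier results of these data known.

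RNA was read from RD18, an established cell line of fusion-negative rhabdomyosarcoma, a tumour of the skeletal muscle lineage that lacks a PAX-FOXO1 fusion. Vehicle cells received the transfection reagent lipofectamine without RNA, and treated cells received miR-449a together with miR-340-5p. Both groups were taken at 60 h, with 4 libraries each. No control RNA was given to the vehicle cells, so the comparison covers RNA delivery as well as the sequence of the microRNAs. The labels do not say that the libraries of a group came from separate cultures. The p-values then measure only the spread between these libraries, which may be technical.

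Each ribosome needs about equal numbers of almost every one of these proteins, and their mRNAs are among the most abundant in growing cells. Most of these mRNAs begin with a C followed by an unbroken run of pyrimidines, the terminal oligopyrimidine or TOP motif, through which mTORC1 and LARP1 are known to control their translation and stability together. Their transcription is known to respond to transcription factors such as MYC. The proteins join ribosomal RNA in the nucleolus with the help of assembly factors, and most copies that find no partner are degraded.

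The sequences of the delivered microRNAs show what was searched for in the members' transcripts. Capitals mark the seed, bases 2 to 8, which pairs with target mRNAs. Both come from RefSeq on GRCh38.p14 and are written 5′ to 3′.
hsa-miR-449a: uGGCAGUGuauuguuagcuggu
hsa-miR-340-5p: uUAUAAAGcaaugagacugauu
An mRNA site that pairs with the first seed reads CACTGCC, and one that pairs with the second reads CTTTATA.

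Start sites of 8 members are shown next because the TOP motif is the feature these genes share. They were picked to hold the members with the largest falls, some with the most counts and 2 that were not called. Each line gives 15 bases on either side of the RefSeq start on GRCh38.p14, 5′ to 3′ on the gene's strand. Capitals mark a C followed by at least 4 pyrimidines that begins within 5 bases of the start, as far as it lies in the window. RPS12 lies at chr6:132814554-132814583 on the plus strand, RPS3 at chr11:75399503-75399532 on the plus strand and RPS18 at chr6:33272060-33272089 on the plus strand. RPLP0 lies at chr12:120201097-120201126 on the minus strand, RPS24 at chr10:78033848-78033877 on the plus strand and RPL37A at chr2:216498829-216498858 on the plus strand. RPS28 lies at chr19:8321481-8321510 on the plus strand and RPL17 at chr18:49492451-49492480 on the minus strand.
RPS12: gcgtgcggatgaggCCTCTTTCCCTgccgc
RPS3: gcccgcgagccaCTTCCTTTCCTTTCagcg
RPS18: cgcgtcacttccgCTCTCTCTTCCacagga
RPLP0: gcgcgggcgcgaggCCCTTCTCTCgccagg
RPS24: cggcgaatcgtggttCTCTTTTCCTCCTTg
RPL37A: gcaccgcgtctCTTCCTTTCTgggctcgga
RPS28: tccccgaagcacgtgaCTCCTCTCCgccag
RPL17: cctctttccctaagcagcctgaggtgagtg
The run was present in RPS12, RPS3, RPS18 and RPLP0, whose mRNA fell most, and also in RPS28, whose mRNA did not pass the test. At the listed start of RPL17 no run began within 5 bases. Its window opens with an unmarked run of the same kind, which begins too far before that start to be counted.

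Ribosomal protein mRNAs were lower in treated cells almost without exception. Of the 77 tested members, 74 fell at an adjusted p under 0.05 (edgeR's quasi-likelihood test, two-sided, Benjamini-Hochberg adjustment over all 12366 genes), none rose and 3 did not pass, RPL17 and RPS28 among them. Over all tested genes the same rule called 34.0% lower and 33.4% higher. Among genes averaging at least 100 CPM, the count scaled for library size after TMM normalization, a class that holds 73 of the members, it called 46.5% lower, while 71 of those 73 members fell. The median log2 fold change, treated over vehicle, was -0.67 over the members, -0.07 over genes of at least 100 CPM and close to 0 over all tested genes.

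In 73 members every treated library lay below every vehicle library, against 29.7% of all tested genes. Among genes averaging at least 100 CPM this held for 783 of 1748, and for 71 of the 73 members in that class. Exceptions included RPL17, RPS26 and RPS28. Most falls were moderate. A log2 fold change between -1 and -0.5 was found in 46 members, and one between -0.5 and 0 in 18. A fall of at least 2-fold was found in 13 members, 6 of the large and 7 of the small subunit, against 13.1% of all tested genes. Only RPS12, RPS3 and RPS18 fell past -1.5, and all 3 belong to the small subunit.

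**Figure D1:**
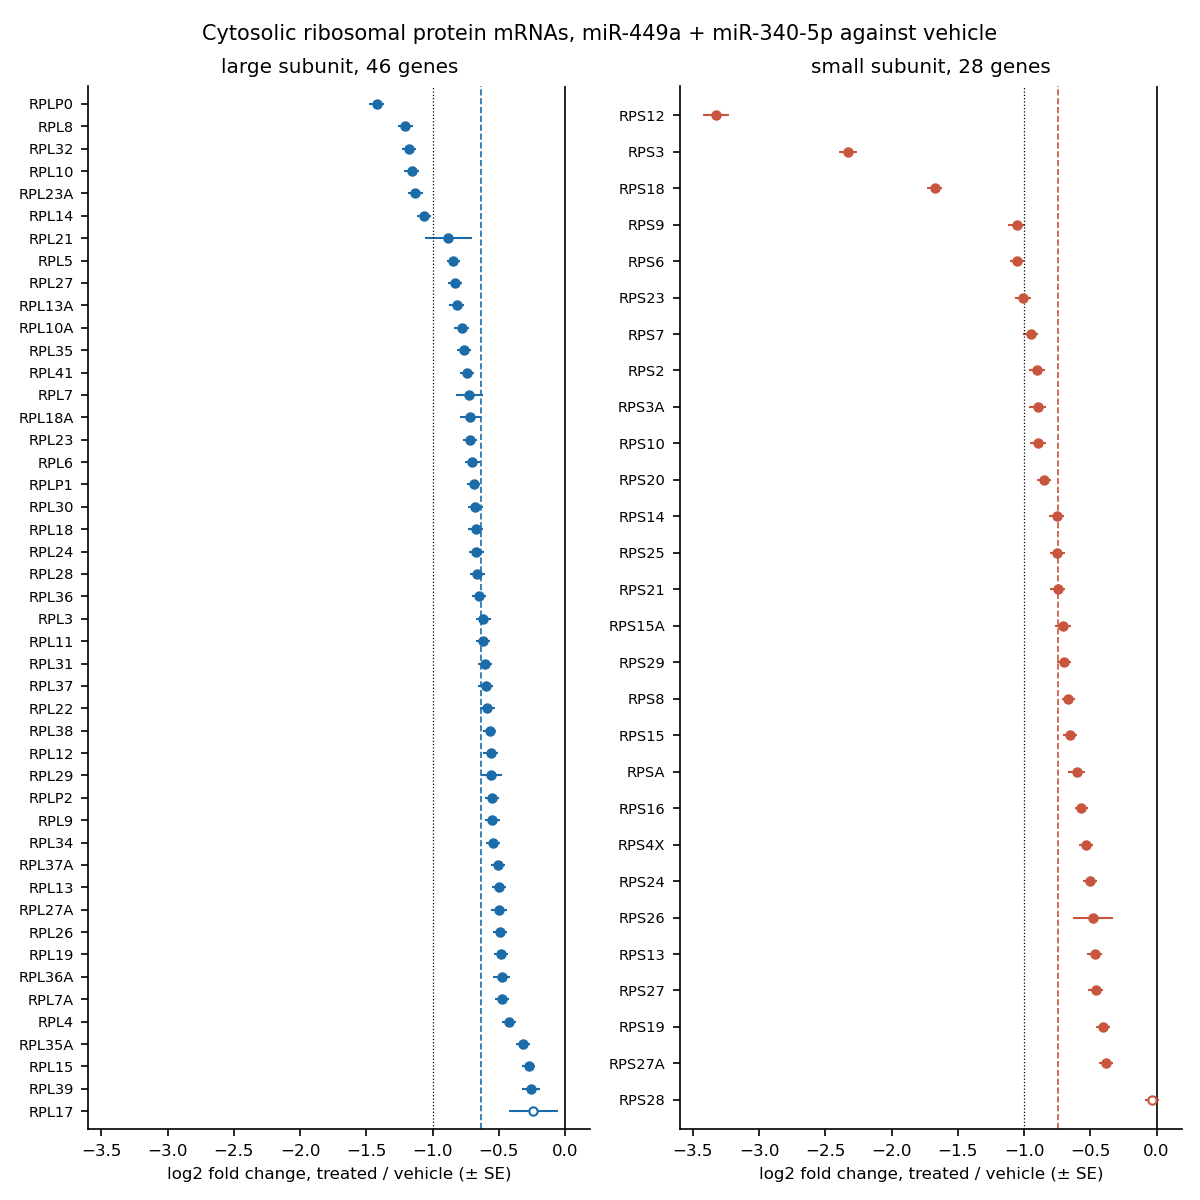
Fitted log2 fold change (treated over vehicle, with its standard error) of 46 large and 28 small subunit genes, ordered by size. Filled points passed an adjusted p of 0.05, open points did not, the dashed line is the median of all tested genes of the subunit (-0.64 and -0.75) and the dotted line is a 2-fold fall; RPS12, RPS3 and RPS18 stand to the left of all other points.

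Together the members took a smaller part of the libraries. Their share of all counts was 9.62%, 9.54%, 9.14% and 9.64% in vehicle libraries and 6.20%, 6.66%, 6.49% and 6.29% in the treated ones. The groups lay far apart, with means of 9.49% ± 0.231 and 6.41% ± 0.210 (SD, n = 4 each). The large subunit's share fell from 5.31% ± 0.119 to 3.71% ± 0.112, and that of the small subunit from 4.18% ± 0.114 to 2.70% ± 0.102. Mitochondrially encoded transcripts, which also take a large share, held 18.1% to 23.3% of vehicle and 20.6% to 22.2% of treated counts, so these ranges overlapped. All of these are shares of the sequenced mRNA, and the amount of RNA per cell was not measured.

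Members differed widely in level, compared here as CPM per kilobase of coding sequence. Untranslated bases are left out of this length, so members with a short coding sequence can stand high. RPL41, with 78 coding bases in a transcript of 469, held only place 15 in vehicle cells by CPM alone. Per coding kilobase the highest in vehicle cells were RPL41 with 23557, RPL37A with 19629.5, RPS24 with 14151 and RPS29 with 12052. The same genes held the first 4 places in treated cells. RPS12 moved from place 8 to place 51 of 77, with 7916 in vehicle and 788 in treated cells. RPS28 moved from place 33 to 20. The lowest 5 were RPSA, RPL7, RPS26, RPL21 and RPL17, from 301 down to 25.5 in vehicle cells. RPL7, RPS26, RPL21 and RPL17 have pseudogene rows holding 76.2%, 104%, 63.3% and 140% as many vehicle counts as the gene itself, so their levels are uncertain.

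RPS12, a protein of the small subunit head, showed the largest change of all members. Its gene lies at chr6:132814441-132817564 (GENCODE 29, GRCh38) and carries the small nucleolar RNAs SNORA33, SNORD100 and SNORD101 in its introns. It stood at 3257, 3288, 2947 and 3142 CPM in vehicle libraries and at 325, 323, 367 and 242 CPM in the treated ones. All treated libraries lay far below the vehicle ones, and replicate 4 was the lowest of them. The log2 fold change was -3.33 (SE 0.10, adjusted p = 8.22e-13 by edgeR), a 10.04-fold fall and the 139th lowest value among all 12366 tested genes.

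RPS3, which lies at the entry of the mRNA channel and also has reported roles in DNA repair, followed. Its level was 1563, 1639, 1531 and 1483 CPM in vehicle and 331, 315, 342 and 247 CPM in treated libraries. As with RPS12, treated replicate 4 was the lowest and the groups lay far apart. The log2 fold change was -2.33 (SE 0.07, adjusted p = 2.73e-29 by edgeR), a 5.02-fold fall. RPS18, a head protein that takes part in a bridge to the large subunit, measured 2385, 2348, 2003 and 2139 CPM in vehicle and 675, 742, 725 and 635 CPM in treated libraries. The RPS18 groups lay far apart, and its log2 fold change was -1.67 (SE 0.06, adjusted p = 4.24e-33 by edgeR).

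These 3 genes have few reads in pseudogene rows. Against the gene's own vehicle counts, the pseudogene rows held 0.176% for RPS12, 0.0263% for RPS3 and 0.761% for RPS18.

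Large subunit members with the largest falls changed less than those 3. RPL8, a core protein near the peptidyl transferase centre, measured 1873, 1882, 1889 and 1803 CPM in vehicle and 775, 895, 840 and 717 CPM in treated libraries. RPL32 stood at 1800, 1922, 1672 and 1711 CPM against 757, 790, 840 and 753 CPM. RPL10, which joins late in the cytoplasm, stood at 397, 443, 394 and 407 CPM against 178, 191, 189 and 177 CPM. In each of the 3 the treated values were close to one another and well below every vehicle value. Their log2 fold changes were -1.21, -1.18 and -1.16, with SEs of 0.06, 0.05 and 0.06 and adjusted p-values of 1.64e-27, 7.59e-28 and 2.28e-25 (edgeR). RPL10 is uncertain because its pseudogene rows hold 50.6% as many vehicle counts as it does.

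**Figure D2:**
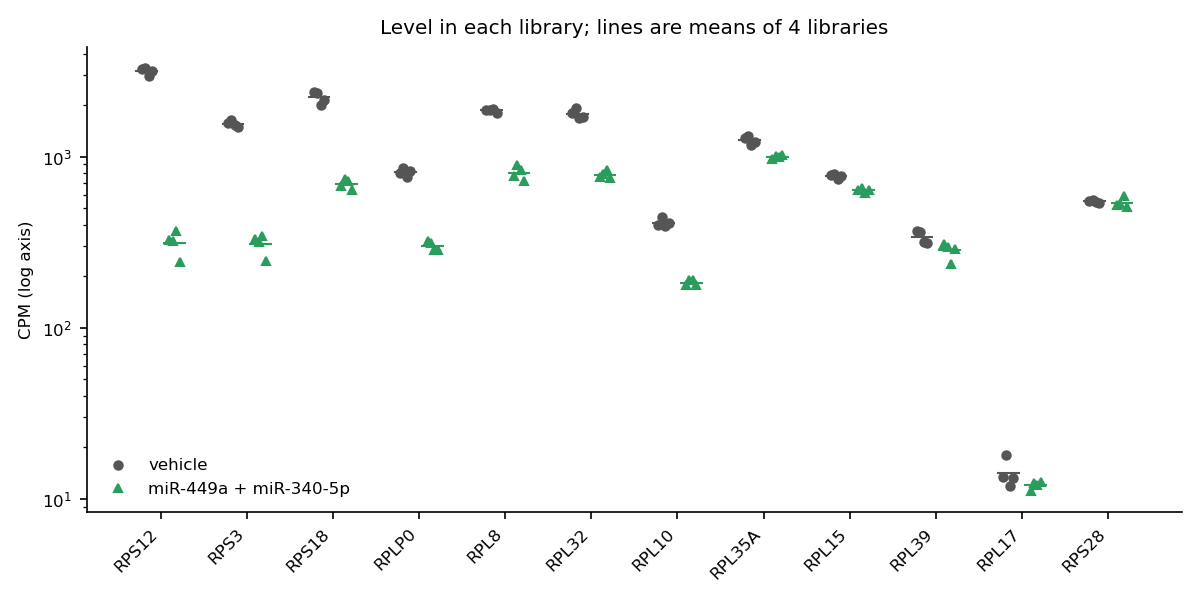
CPM on a log axis in each of the 4 vehicle (circles) and 4 treated (triangles) libraries, with group means as lines, for 7 of the members with the largest and 5 of those with the smallest changes. RPS12 falls from 3159 to 314 CPM on average, while the points of RPL17 and RPS28 overlap.

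RPS28 and RPL17 were not called, at very different levels. RPS28, a small head protein at the mRNA exit, measured 553, 561, 541 and 538 CPM in vehicle and 519, 530.0, 585 and 508 CPM in treated libraries. It is well measured, and its groups overlapped because treated replicate 3 was the highest of all 8 libraries. The log2 fold change was -0.03 (SE 0.05, adjusted p = 0.581 by edgeR). Its sign turned with the scaling: with library size alone, which raises the median of all genes by 0.14, it was 0.10.

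RPL17, of the exit tunnel rim, was read at a low level, with 13.4, 18.1, 11.9 and 13.3 CPM in vehicle and 11.2, 12.5, 12.1 and 12.6 CPM in treated libraries. The groups overlapped, and the log2 fold change was -0.24 (SE 0.19, adjusted p = 0.253 by edgeR). The readthrough gene RPL17-C18orf32 overlaps it on the same strand, and its pseudogene rows hold more vehicle reads than it does. With those pseudogene reads added to the gene, the log2 fold change was -0.39 (adjusted p = 0.00497 by edgeR). RPL39, a very small protein that lines the exit tunnel, was the least changed of the called members. It measured 366, 365, 317 and 314 CPM in vehicle and 310.3, 298, 237 and 287 CPM in treated libraries, so the groups lay side by side with a gap of only a few CPM. The log2 fold change was -0.25 (SE 0.07, adjusted p = 7.74e-04 by edgeR), and it lost its call with library size alone (adjusted p = 0.135). RPL15, at -0.28, and RPL35A, at -0.32, came next.

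The members with the most counts fell moderately. RPS24, a body protein that helps process the 18S precursor, had 5712, 5964, 5465 and 5613 CPM in vehicle and 3991, 4159.9, 4174 and 3751 CPM in treated libraries. RPL37A had 5726, 5431, 5391 and 5358 CPM against 3604, 3923, 4309 and 3592 CPM, and RPL27A 3542, 3868, 3456 and 3581 CPM against 2533, 2710.2, 2831 and 2158 CPM. In all 3 every treated library was below every vehicle library. Each fell by a log2 of about the same size: RPS24 at -0.50, RPL37A at -0.51 and RPL27A at -0.50, with adjusted p-values of 8.48e-13, 2.69e-12 and 3.77e-10 (edgeR).

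The acidic stalk, which recruits the elongation factors, did not change evenly. RPLP0, its base, had 804, 854, 760.2 and 819 CPM in vehicle and 323, 312, 285 and 283 CPM in treated libraries, a 2.68-fold fall (log2 fold change -1.42, SE 0.06, adjusted p = 6.57e-31 by edgeR). Its partner RPLP1 had 3082, 3257, 2875 and 2977 CPM against 1904, 1952, 1916 and 1779.96 CPM, and RPLP2 had 1382, 1408, 1305 and 1316 CPM against 875, 930.0, 1027 and 864 CPM. No groups overlapped, and RPLP1 and RPLP2 fell by less, with log2 fold changes of -0.69 and -0.55 (SE 0.05 each). The difference between RPLP0 and its partners was not tested. RPLP0 is also widely used as a reference transcript in quantitative PCR.

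RPL5 and RPL11 form, with 5S ribosomal RNA, the particle that binds MDM2 when ribosome assembly is disturbed. RPL5 stood at 2316, 2329, 2146 and 2188 CPM in vehicle and 1226, 1238, 1317 and 1228 CPM in treated libraries. RPL11 stood at 1466, 1430.2, 1394 and 1431 CPM against 894, 972, 892 and 969.8 CPM. Both fell with no overlap, at log2 fold changes of -0.84 and -0.62 (SE 0.05 each, adjusted p = 4.96e-22 and 3.16e-16 by edgeR).

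Position within the ribosome was compared through lists of members. Of the 14 small subunit head genes 13 fell (median -0.80), against 16 of 17 tested body and platform genes (median -0.71). In the large subunit, 8 of 9 genes at the rim of the exit tunnel fell (median -0.57) and all 5 late-joining genes did (median -0.74). The 20 genes linked to Diamond-Blackfan anaemia, an inherited failure of red cell production caused mainly by loss of 1 copy of a ribosomal protein gene, were spread over both subunits. Of these, 19 fell (median -0.65), none by as much as 2-fold. The medians of these 5 lists ran from -0.57 to -0.80, on either side of the -0.67 of all members.

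The large and small subunits were compared next. Of the 46 large subunit genes 45 fell, and of the 31 tested small subunit genes 29 did. The median log2 fold change was -0.64 for the large and -0.75 for the small subunit, and -0.70 for the small subunit without RPS12, RPS3 and RPS18. Summed CPM fell to 0.636 of the vehicle level in the large and to 0.585 in the small subunit.

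Within each library, the ratio of small to large subunit counts needs no scaling between libraries. It was 0.791, 0.795, 0.781 and 0.785 in vehicle libraries and 0.723, 0.725, 0.741 and 0.713 in the treated ones. Every treated library was below every vehicle library, with means of 0.788 ± 0.00600 and 0.725 ± 0.0115 (SD, n = 4 each). Per kilobase of coding sequence the ratio went from 0.694 ± 0.00824 to 0.645 ± 0.00893, again without overlap. No p-value is given for the ratio, because the members were grouped with earlier results of these data known.

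The size of this difference depended on which genes were summed. As a log2 change of the ratio it was -0.12 with all members, -0.20 without the 3 most counted members of each subunit, and -0.18 as a difference of the mean log2 CPM of the subunits. RPS12 alone made up 7.04% to 7.32% of small subunit counts in vehicle and 0.985% to 1.36% in treated libraries, and 15.5% of the summed CPM fall of the small subunit. In sums that leave out small subunit genes picked for their large falls, after their values were seen, the ratio moves up by construction. Without RPS12 the ratio ran from 0.726 to 0.738 in vehicle and from 0.706 to 0.731 in treated libraries, so the groups overlapped. Without RPS12, RPS3 and RPS18 it was higher in treated libraries, with 0.660 to 0.669 in vehicle and 0.681 to 0.702 in treated libraries, and no overlap. The large subunit kept its own largest falls in these sums, and the median of the remaining small subunit genes, -0.70, was still below the -0.64 of the large subunit. The spread of log2 CPM per kilobase over the members stayed alike, with an SD of 1.83 ± 0.0121 in vehicle and 1.86 ± 0.0147 in treated libraries.

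**Figure D3:**
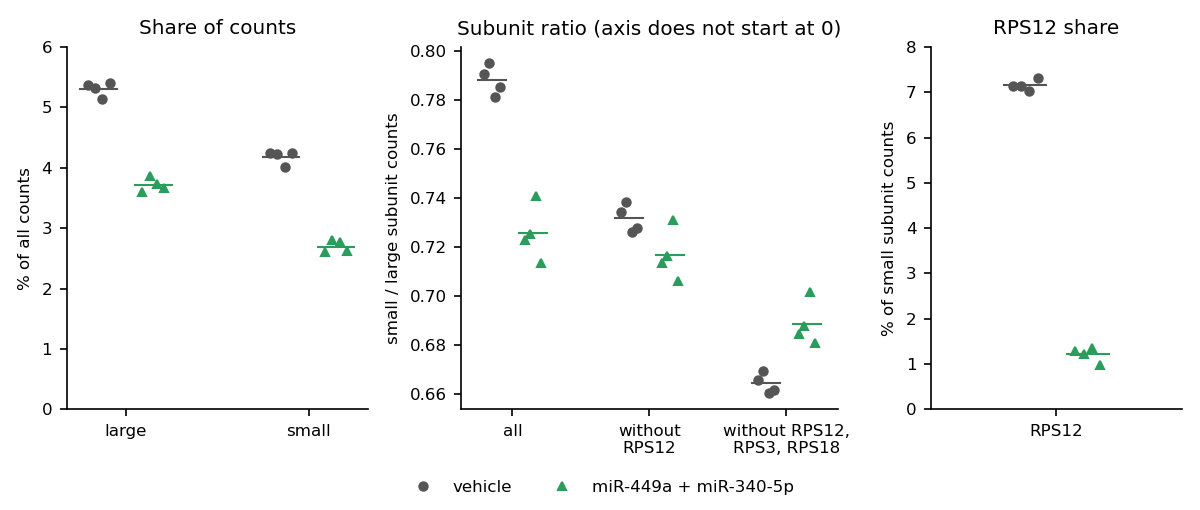
Left, percent of all counts in large and small subunit genes; middle, ratio of small to large subunit counts with all members, without RPS12, and without RPS12, RPS3 and RPS18; right, RPS12 as a percent of small subunit counts. Points are libraries (circles vehicle, triangles treated) and lines are means; the ratio is lower in treated libraries with all members and higher once those 3 genes, picked for their large falls, are left out.

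Some members have a paralog with an L suffix or a fusion partner outside the rule, and these did not all follow. RPL22 measured 384, 371, 351 and 361 CPM in vehicle and 254, 248, 242 and 231 CPM in treated libraries. Its paralog RPL22L1, which RPL22 is known to repress, measured 47.3, 38.1, 34.4 and 34.9 CPM against 15.3, 17.4, 12.1 and 15.1 CPM. Both fell without overlap, RPL22 at -0.59 and RPL22L1 at -1.32 (adjusted p = 1.75e-13 and 3.35e-12 by edgeR).

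RPL26 and its paralog moved in opposite directions. RPL26 had 2045, 2101, 1964 and 2071 CPM in vehicle and 1399.8, 1491, 1595 and 1341 CPM in treated libraries, and RPL26L1 had 36.4, 40.1, 36.8 and 33.2 CPM against 52.0, 57.0, 41.3 and 56.6 CPM. No groups overlapped. RPL26 fell by 0.49 and RPL26L1 rose by 0.51 on the log2 scale (adjusted p = 3.82e-12 and 5.95e-05 by edgeR).

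RPS27 and RPS27L, a p53-responsive paralog, both fell. RPS27 had 789, 691, 629 and 657 CPM in vehicle and 490.1, 501, 476 and 539.8 CPM in treated libraries, and RPS27L had 128, 136, 137 and 159.5 CPM against 101, 84.6, 103 and 75.6 CPM. The log2 fold changes were -0.46 and -0.63, with adjusted p-values of 6.16e-10 and 3.13e-09 (edgeR), and neither pair of groups overlapped.

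RPL36A and RPL7 fell while their paralogs were not called. RPL36A had 683, 611, 628 and 701 CPM in vehicle and 438, 524, 507 and 409 CPM in treated libraries, and RPL36AL had 125, 107, 116 and 116 CPM against 120.005, 122, 99.8 and 109 CPM. RPL7 had 72.4, 66.8, 85.3 and 103 CPM against 49.0, 53.6, 49.2 and 46.7 CPM, and RPL7L1 had 211, 219, 216 and 221 CPM against 225, 216, 227 and 211 CPM. The groups of both members were apart and those of both paralogs overlapped. The log2 fold changes were -0.48 for RPL36A, -0.02 for RPL36AL, -0.72 for RPL7 and 0.02 for RPL7L1, with adjusted p-values of 3.64e-09, 0.795, 1.66e-08 and 0.813 (edgeR). The difference within a pair was not tested. RPL36A overlaps a readthrough gene with HNRNPH2 on the same strand. RPL39L was not tested because of low counts. FAU, which encodes RPS30 fused to a ubiquitin-like protein, fell by 0.40 on the log2 scale, beside -0.38 for RPS27A, the ubiquitin fusion among the members.

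The other genes of the translation and ribosome assembly programme were described through lists. Of 19 tested elongation factors and other genes with TOP mRNAs, 15 fell and none rose (median -0.46). EEF1B2, a subunit of the exchange factor for the tRNA carrier, fell 2.07-fold, NAP1L1 2.15-fold, HNRNPA1 2.26-fold and EIF3H, a subunit of initiation factor 3, 5.62-fold. Of 12 snoRNA host genes with TOP starts, 11 fell (median -1.11), 9 of them by at least 2-fold. Beside both lists, 34.0% of all tested genes were lower, 13.1% by at least 2-fold. Among those averaging at least 100 CPM 46.5% were lower. SNHG1 fell 3.58-fold, ZFAS1 2.44-fold, LRRC75A-AS1 2.08-fold and SNHG16 by 1.59 on the log2 scale. Members that host snoRNAs themselves had a median of -0.67 over 28 genes, the same as the 49 tested members without them.

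Assembly factors changed in both directions. Of 48 genes listed as small subunit factors 30 fell and 5 rose (median -0.40). Of 55 listed as large subunit factors 30 fell and 6 rose (median -0.30). Among all tested genes 34.0% were lower and 33.4% higher. The large subunit list also holds NOP14 and NOC4L, both lower, which belong with the small subunit factors. The difference between the lists was not tested. NOP56, a core protein of box C/D snoRNPs, fell 2.46-fold and NSA2, which joins the maturing large subunit, 3.77-fold. Among 19 genes of RNA polymerase I and ribosomal DNA transcription, 12 fell and 3 rose (median -0.46), with CD3EAP, a polymerase subunit, 2.42-fold and NPM1 1.80-fold lower. Of 13 ribosomal protein chaperones 9 fell and 2 rose (median -0.32).

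The mitochondrial ribosome, made of other proteins, gives a comparison with a similar name and number of genes. Of its 75 tested genes 31 fell, 10 rose and 34 did not pass (median -0.18). The mitochondrial large subunit had a median of -0.23 and the small one of -0.04. These counts lie nearer to the 34.0% of all tested genes than those of the cytosolic members, a difference that was not tested.

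**Figure D4:**
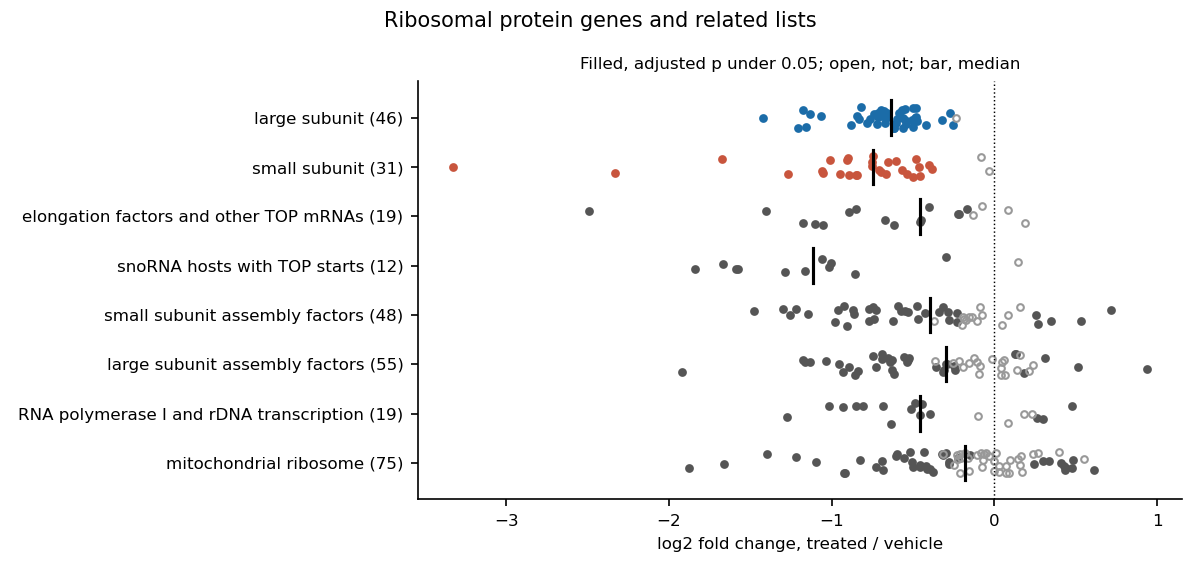
Log2 fold change (treated over vehicle) of each tested gene in 8 lists, with the number tested in parentheses, filled where the adjusted p was under 0.05, and a bar at the list's median. The cytosolic subunits have medians of -0.64 and -0.75, the snoRNA hosts -1.11 and the mitochondrial ribosome -0.18, and the dotted line is the median of all tested genes.

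Regulators of these genes changed in both directions. Of 22 tested genes of mTORC1 signalling and TOP mRNA control, 8 fell and 5 rose (median -0.11, and 0.03 with library size alone), a share near the 34.0% lower of all tested genes. SESN2 and DDIT4, inhibitors of mTORC1, rose 8.58-fold and 3.55-fold, and TSC1, part of the complex that switches off RHEB, rose 3.06-fold. LARP1, which binds TOP mRNAs, fell 1.73-fold. RPTOR, the mTORC1 subunit that recruits substrates, rose 1.96-fold, and EIF4EBP1 and EIF4EBP2, which repress translation when mTORC1 is inactive, fell 1.48-fold and 1.71-fold; these 3 were named after their values were seen. Of 11 tested transcription factors reported at ribosomal protein promoters or in the MYC network, 6 fell and 3 rose (median -0.39). E2F1 fell 7.32-fold and CTCF 1.79-fold, MNT, which opposes MYC at shared sites, rose 2.34-fold and ZBTB7A 1.76-fold. MYC, named after its value was seen, fell 2.19-fold. Whether any of them bears on the members was not tested.

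Seed words were rare in the members' transcripts. In 77 chosen transcripts (GENCODE 29), 10 members held CACTGCC or CTTTATA anywhere, or 12.99%, against 45.2% of 10910 searched genes. The members' transcripts are short: their median 3′ UTR is 56 bases, against 874 over all searched genes. A word in the 3′ UTR was found in RPL13A, RPL37A and RPS23 for miR-449a and in RPL23 and RPL37 for miR-340-5p. The chosen transcripts of RPL37, RPS23 and RPL37A have unusually long 3′ UTRs for members, of 7242, 2751 and 2682 bases. Another of the 10, in the 5′ UTR of RPL3, lies upstream of that gene's listed RefSeq start. Other transcripts of these genes were not searched. The median log2 fold change was -0.68 for the 10 members with a word and -0.67 for the 67 without. For the miR-449a word alone it was -0.86 in the 6 members with it and -0.67 in those without. For the miR-340-5p word it was -0.61 in the 4 members with it and -0.67 in those without. Over all searched genes the medians were -0.11 with and 0.08 without the miR-449a word, and 0.03 and 0.01 for miR-340-5p. These differences were not tested.

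Among the 3 members with the largest falls, RPS12 and RPS3 held neither 7-base word. Each held the last 6 bases of 1 of the words, and how common such shorter matches are among all genes was not counted. RPS18 held the miR-449a word followed by an A in its coding sequence, as did RPS2, which fell by 0.90 on the log2 scale. The word of RPS18 lies in an exon at chr6:33272714-33272720, at bases 200 to 206 of the transcript, and capitals mark it with the A after it.
RPS18 coding sequence: gcctttgccatCACTGCCAttaagggtgtg
A word match is a description of letters and was not tested as a site.

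The TOP-like run shown at the starts above was the commonest shared feature. RefSeq promoters were found for 62 tested members, and 53 of them, or 85.5%, had the run at 1 or more listed starts, against 30.1% of 8750 tested genes with a promoter. Of the 53 members with the run 52 fell (median -0.62), and of the 9 without it 8 fell (median -0.55). A run that begins more than 5 bases from every listed start, as in RPL17, was not counted. Among the 8688 other genes, the 2583 with the run had a median of 0.02 and the 6105 without it one of 0.04. The run was found in 33 of 38 large and 20 of 24 small subunit genes with a promoter.

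Short motifs in the 300-base promoters were counted on both strands. CCGGAAG, an ETS-type site, was found in 22 of 62 members (35.5%, against 23.9% of 8750 genes) and AAGATGGC, of the YY1 type, in 6 (9.68%, against 7.11%). The E-box CACGTG, to which MYC binds, was found in 4 (6.45%, against 13.04%), the GC box GGGCGG in 36 (58.1%, against 78.4%) and TATAAA in 5 (8.06%, against 7.90%). Members with and without CCGGAAG had medians of -0.65 and -0.60.

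Features of the genes followed the size of the fall weakly at most. Over the 77 tested members, Pearson's r with the log2 fold change was -0.15 for coding length, -0.11 for transcript GC content, -0.07 for the vehicle level per coding kilobase and 0.03 for the share of pseudogene counts. Spearman's rho was -0.26, -0.15, 0.11 and -0.03. All genes were read in the same 8 libraries, and these values are descriptions across genes.

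Reads from processed pseudogenes bear on several members. The table holds 477 pseudogene rows for 69 members, and of the 127 that were tested 89 were lower and 1 was higher (median -0.68). In RPL10, RPS23, RPS2, RPS10, RPL21, RPL7, RPS26 and RPL17 these rows held at least 50% as many vehicle counts as the gene itself. Summed over members, pseudogene rows took 0.450% to 0.499% of vehicle and 0.312% to 0.334% of treated counts. With pseudogene reads added to their genes, 75 of the 77 tested members were lower. RPS26, at 23.8, 19.16, 31.2 and 29.6 CPM in vehicle and 16.2, 18.4, 22.03 and 19.96 CPM in treated libraries, overlapped between groups although it was called (log2 fold change -0.48, SE 0.15, adjusted p = 0.00472 by edgeR).

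Depth ran from 2567737 to 5569342 counts per library. The correlation of log2 CPM was at least 0.972 within and at most 0.859 between groups. Of 7 tested muscle lineage markers 6 were lower in treated cells, 1 of them by at least 2-fold, and 1 was higher (median -0.66). Over all tested genes 34.0% were lower, 13.1% by at least 2-fold, and 33.4% were higher. MYOD1 fell 1.88-fold, DES 1.58-fold and CHRNA1 1.31-fold, so the marker that fell by at least 2-fold is not among those named. The part of the markers in the fall of the members was not tested. The 4 leukocyte and 2 endothelial markers did not pass the count filter, and of 4 epithelial markers KRT8 and KRT18 passed and were higher in treated cells.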

How the data were processed

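Polyadenylated RNA was sequenced from stranded libraries on a HiSeq4000, per the labels' protocols. The authors deposited raw read counts by gene symbol, with a column for each library. Among the tools in the submitters' processing notes are HTSeq 0.5.3p3 and TopHat2 2.0.13, also SAMtools 0.1.19.24 and DESeq2, and the build is GRCh38; their roles are not stated. How the authors treated strand and reads with several matches is not given in the sources used here. Such reads can move between members and their pseudogenes.

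Genes were filtered with filterByExpr (minimum count 10, minimum total 15), given TMM factors, and fitted in R 4.3.3 by edgeR 4.0.16 (robust glmQLFit, then glmQLFTest on group) over all 12366 genes, which hold 99.5% of counts. The test was tried on simulated counts. CPM values use TMM library sizes, and SDs are over 4 libraries. At these depths counting error matters mainly for the members under 100 CPM. The chi-square per gene between replicates was 2.21 to 5.89, so none was a duplicate.

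The members and lists were chosen with earlier results of these data known. Values in each library are given for the 8 largest and 4 smallest changes, uncalled members, the 3 with the most counts, the stalk, the 5S particle and paralog pairs. Up to 4 genes per list with the smallest adjusted p are named with their change. RPS26 and the genes whose start windows are shown were picked after their values were seen. Some genes that the rule names are left out of the text and figures and are not reported here. Symbols were matched to GENCODE 29, 17606 by name and 479 by another symbol, with 4723 unmatched. Promoters and microRNAs are RefSeq's on GRCh38.p14, with no promoter entry for 15 tested members. Alternatives were DESeq2 1.42.0, limma-voom (limma 3.58.1), other scalings, filters and thresholds, removal of mitochondrially encoded genes, a replicate block, leaving out each library, pseudogene reads, and a correction for GC content and length.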

Additional observations from a re-analysis of the deposited data

Results flagged for a closer look

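The 4 libraries per group of 74 members were checked for 1 library far from the other 3 by Dixon's test. Together with the count share and the subunit ratio this made 152 groups, of which 6 stood out, and chance flags about 1 in 20. In the treated libraries, replicate 3 was low for RPL23A (446 CPM, others 513 to 523) and RPL30 (982 CPM, others 1162 to 1194), and high for RPL5 (1317 CPM, others 1226 to 1238) and RPS7 (369 CPM, others 324 to 329). Treated replicate 1 was low for RPS15 (916 CPM, others 1007 to 1018) and high for RPS20 (432 CPM, others 410.0 to 413). In all 6 members every treated library was below every vehicle library.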

How the results depend on the processing

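The count of 74 lower members was 72 to 75 under the other scalings, filters, tools and left-out libraries tried, and 13 when a 2-fold fall was also required. No member was called higher under any of them. The GC and length correction left 72 lower and library size alone 73. Of 1540 member values over 20 settings 1536 kept their call: RPL39 was lost with library size and with the GC and length correction (adjusted p = 0.479), RPS26 with that correction (adjusted p = 0.0668), and RPL17 was gained with pseudogene reads. The large subunit's median was -0.58 with upper-quartile scaling, -0.50 with library size and -0.51 with the GC and length correction, and the small subunit's -0.61 and -0.56 with the latter 2. Library size alone moves the median of all tested genes by 0.14, and it turned the mTORC1 and TOP regulator median from -0.11 to 0.033. The log2 change of the subunit ratio, -0.12, was -0.20 without the 3 most counted members of each subunit and -0.18 as a difference of mean log2 CPM. In alternatives chosen after seeing the data it was -0.030 without RPS12 and 0.052 without RPS12, RPS3 and RPS18. The fall of the count share, -3.08 percentage points, was -3.88 when mitochondrially encoded genes left the total. The cause of these shifts was not tested. With the replicate block 74 members were lower. Whether the replicate numbers pair the libraries was not settled. Same-numbered deviations correlated weakly, at 0.02, 0.03, 0.06 and 0.01. Each treated library still correlated most with the vehicle library of its own number. Vehicle replicate 4 correlated slightly more with treated replicate 2 than with its own number, at 0.0150 against 0.0135.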
